A study of Mus musculus with 12 samples.

Results

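The cardiac connexin genes Gja1, Gja5, Gjc1 and Gja4 were followed through the RNA-seq of Med30-deficient mouse hearts. They are 4 of the 20775 genes in each of the 2 deposited tables, and were taken by name as the connexins known from heart muscle and from the cells lining its vessels and chambers. MED30 is a subunit of Mediator, the complex that links transcription factors to RNA polymerase II. At E10.5, whole hearts from embryos homozygous for the floxed Med30 allele (f/f) and carrying Tnnt-Cre, which deletes in cardiomyocytes (cKO, n = 3), were compared with those of f/f littermates without Cre (Ctrl, n = 3). In adults, cardiomyocytes were isolated at 4 weeks after tamoxifen from mice labelled as 3 months of age. The icKO mice (n = 3) were Med30 f/f and carried αMHC-MerCreMer, a tamoxifen-activated Cre made in cardiomyocytes, and the Ctrl mice (n = 3) were Med30 f/f, received tamoxifen and lacked Cre. The labels give the strain of all samples as C57BL/6 and call the controls wild type. Since no control among these samples carried Cre, an effect of Cre and the loss of Med30 cannot be told apart in them. The paper reports neither deaths nor impaired heart function after tamoxifen in αMHC-MerCreMer mice that had no floxed allele, and no such mice are among these samples. The floxed allele removes the first exon of Med30 and came from 1 targeted line. No source ties the 3 samples of a group to separate animals, so p values measure the spread between these samples.

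Connexins are membrane proteins that assemble into hexameric channels, which dock between neighbouring cells to form gap junctions. In the heart these channels pass the depolarising current from cell to cell, and their number and type set how fast the impulse spreads. Gja1 encodes Cx43, the main connexin of working ventricular muscle. Gja5 encodes Cx40, a high-conductance connexin of atrium, embryonic trabeculae, the ventricular conduction system and arterial endothelium. Gjc1 encodes Cx45, a low-conductance connexin that is made early in the heart tube and persists in the nodes, and Gja4 encodes Cx37, which is found in endothelium.

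The genes lie on 4 chromosomes of GRCm38. Gja1 spans chr10:56377330-56402513 on the plus strand and Gja4 spans chr4:127311421-127314039 on the minus strand. Gjc1 spans chr11:102799579-102819700 on the minus strand, and no other gene overlaps these 3 genes. Gja5 spans chr3:96904693-97077416 on the plus strand and overlaps genes on the other strand, among them Gpr89 and 2 antisense genes. The Gja5 transcript of 3109 bases, whose length was used for the approximate read numbers, shared 0 exon bases with other genes.

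Upstream sequence is shown for the genes that RefSeq (GRCm38.p6) lists with a promoter window, which are 3 of the 4, so that the region before Gja1 and Gja5, both lower in cKO hearts, can be read beside that of Gja4, which was not called. Each line holds the 250 bases before the annotated start, 5′ to 3′ on the strand of the gene, with matches to the searched motifs in capitals.
Gja1: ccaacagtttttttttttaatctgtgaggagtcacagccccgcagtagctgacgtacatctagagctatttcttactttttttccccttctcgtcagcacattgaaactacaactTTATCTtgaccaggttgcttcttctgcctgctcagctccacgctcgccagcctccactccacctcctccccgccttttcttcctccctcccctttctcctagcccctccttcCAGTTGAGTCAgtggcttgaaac
Gja5: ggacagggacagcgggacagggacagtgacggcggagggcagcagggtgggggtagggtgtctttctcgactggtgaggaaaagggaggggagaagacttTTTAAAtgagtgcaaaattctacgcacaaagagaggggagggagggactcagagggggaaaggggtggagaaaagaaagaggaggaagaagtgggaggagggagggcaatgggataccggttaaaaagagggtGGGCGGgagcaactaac
Gja4: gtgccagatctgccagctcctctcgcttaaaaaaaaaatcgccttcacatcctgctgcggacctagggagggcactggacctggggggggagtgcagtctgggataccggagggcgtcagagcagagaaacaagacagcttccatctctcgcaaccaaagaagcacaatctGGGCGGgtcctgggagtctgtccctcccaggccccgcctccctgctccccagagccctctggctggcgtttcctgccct
These windows are chr10:56377050-56377299 (plus strand), chr3:97032152-97032401 (plus strand) and chr4:127314040-127314289 (minus strand). The Gja5 window lies inside the gene span given above, shortly before the 3109-base transcript, which starts at 97032416, and not at the outer start of that span. Motifs were searched on both strands in all 32851 RefSeq windows of this length, and a match is a run of letters, not a bound site. The Gja1 window held the GATA letters AGATAA on the reverse strand, beginning 135 bases before the start, a match present in 9.99% of windows. It also held an E-box (CANNTG, 66.2% of windows) at 23 bases, which overlapped an AP-1 match (TGANTCA, 6.75% of windows) at 19 bases. The Gja5 window held TTTAAA (12.1% of windows) at 150 bases and the GC box GGGCGG (32.7% of windows) at 17 bases, and the Gja4 window held GGGCGG at 79 bases. None of the 3 windows held the letters TATAAA (12.4% of windows), AGGTGTG (T-box half-site, 5.1%), CAAGTG (Nkx2-5 site, 11.6%) or CCAAT (33.8%). Their GC content was 50.0%, 56.4% and 61.2% for Gja1, Gja5 and Gja4, against a median of 52.4% over all windows.

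Values are RPKM, reads scaled to transcript length and library size, as the authors deposited them. Libraries held an estimated 11.93 to 19.97 M reads. The 20 most abundant genes took 8.55% to 10.6% of the summed RPKM at E10.5, 24.8% to 25.4% in adult Ctrl and 11.5% to 13.1% in icKO. Changes were tested with limma on log2(RPKM + 0.1) over genes with a mean RPKM above 1, a scale that understates changes of low genes. To be called lower or higher, a gene needed a log2 fold change past 1 in size and, after Benjamini-Hochberg adjustment, a p under 0.05. Over all genes tested the median log2 fold change was −0.13 at E10.5 and 0.57 at 4 weeks. The shift at 4 weeks is printed beside some adult results only, and the other adult log2 fold changes contain it. At E10.5, 7467 of 10885 genes tested lay below 0, and at 4 weeks 6958 of 9517 lay above 0. The share of all genes at an unadjusted p under 0.05 was not counted, so list counts at that cutoff stand without a background. Med30 itself was at 10.6, 13.3 and 11.3 RPKM in Ctrl and 1.38, 2.02 and 1.004 RPKM in cKO hearts, and fell by 2.96 on the log2 scale (limma adjusted p = 0.000367). In adult cardiomyocytes it was at 7.66, 7.45 and 7.66 RPKM in Ctrl and 3.81, 3.16 and 1.82 RPKM in icKO, and fell by 1.40 (limma adjusted p = 0.000403).

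At E10.5, Gja1 and Gja5 fell in cKO hearts while Gjc1 and Gja4 did not pass the test. All 4 genes passed the RPKM filter, and 2 of the 4 were called lower, where 0.542% of the 10885 genes tested were called lower and 0.239% higher. These were 59 lower genes, and 18 without Ctrl replicate 3 and 102 without cKO replicate 3, while Gja1 and Gja5 were called in each case. Of 12 cardiomyocyte markers limma called 0, with 3 lower and 0 higher at an unadjusted p under 0.05.

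Gja1 was at 50.0, 36.0 and 48.6 RPKM in the Ctrl hearts and at 13.2, 13.03 and 10.503 RPKM in the cKO hearts. Every cKO heart lay below every Ctrl heart, as in 22.6% of all genes tested (6.5% had every cKO heart above), and the cKO values lay closer together than the Ctrl values. The mean went from 44.9 ± 7.70 (SD, n = 3) to 12.3 ± 1.52 RPKM, 3.66-fold lower, a log2 fold change of −1.86 (SE, the standard error, 0.153, 95% interval −2.20 to −1.51, limma adjusted p = 0.000531).

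Gja5 was at 29.0, 20.5 and 28.9 RPKM in Ctrl and at 5.34, 4.07 and 5.24 RPKM in cKO. The groups did not overlap, and the lowest Ctrl heart was replicate 2 for both Gja5 and Gja1. The mean of Gja5 went from 26.1 ± 4.85 to 4.89 ± 0.707 RPKM (SD, n = 3), 5.35-fold lower, with a log2 fold change of −2.39 (SE 0.166, 95% interval −2.76 to −2.02, limma adjusted p = 0.00026).

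Gjc1 was at 28.1, 23.2 and 25.5 RPKM in Ctrl and at 21.1, 18.6 and 26.7 RPKM in cKO. These groups overlapped, with cKO replicate 3 inside the Ctrl range. The log2 difference was −0.22 (SE 0.146, 95% interval −0.55 to 0.11, limma adjusted p = 0.389).

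Gja4 was at 9.14, 7.78 and 8.76 RPKM in Ctrl and at 6.03, 10.3 and 6.07 RPKM in cKO. The cKO replicate 2 lay above all Ctrl hearts and the other cKO hearts lay below them. The log2 difference was −0.24 (SE 0.199, 95% interval −0.68 to 0.21, limma adjusted p = 0.495), an interval that spans differences in either direction.

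**Figure D1:**
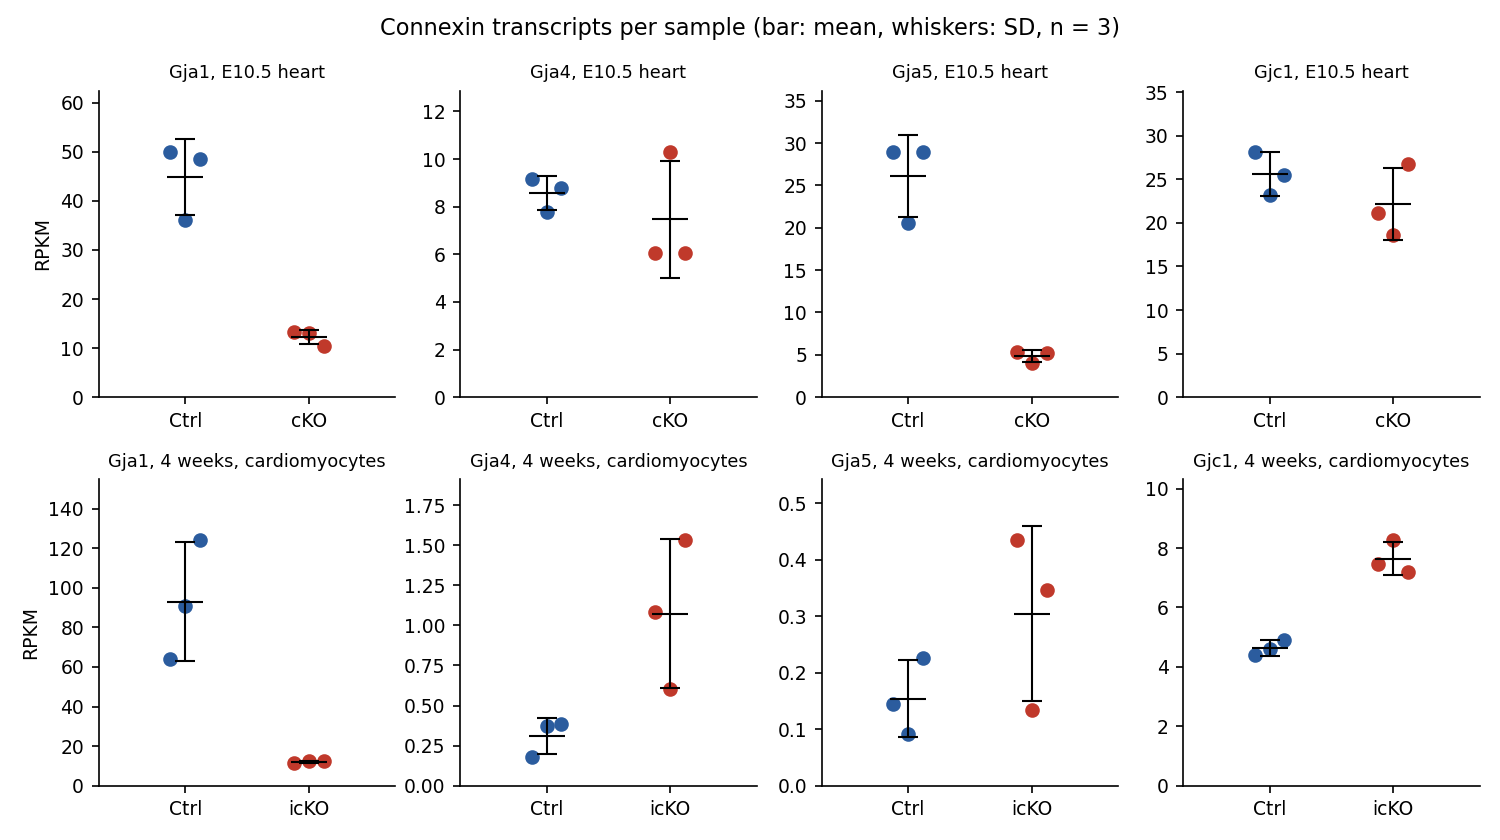
RPKM of each connexin gene in every sample, with E10.5 hearts in the upper row and adult cardiomyocytes at 4 weeks after tamoxifen in the lower row. Blue points are Ctrl and red points cKO or icKO samples, horizontal bars are means, whiskers are SD (n = 3), and each panel has its own RPKM axis from 0. Gja1 lies lower in every knockout sample of both rows, Gja5 in every cKO heart, and the adult levels of Gja4 and Gja5 reach at most 1.53 and 0.434 RPKM.

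In adult cardiomyocytes, the RPKM of Gja1 fell further than in embryonic hearts, and the other 3 genes were at lower levels than Gja1 in every sample. Of the 4 genes, Gja1 and Gjc1 passed the filter at 4 weeks. Gja1 was called lower, where 8.45% of the 9517 genes tested were called lower and 28% higher. These shares, used below as the background, belong to the RPKM as deposited. With median-ratio scaling 1476 genes were called lower and 1106 higher. The paper, with DESeq2 and the same cutoffs, also reports more genes lower than higher in icKO.

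Gja1 was at 64.2, 91.1 and 124.0 RPKM in Ctrl and at 11.4, 12.4 and 12.5 RPKM in icKO cardiomyocytes. The Ctrl samples spread over a wide range and the icKO samples over a narrow one below it, and 18.9% of all genes tested lay lower without overlap. The mean went from 93.1 ± 30.0 to 12.1 ± 0.626 RPKM (SD, n = 3), 7.71-fold lower, and the log2 fold change was −2.89 (SE 0.200, 95% interval −3.34 to −2.43, limma adjusted p = 2.23e-06). Against the median of all genes, the log2 difference was −3.45.

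Gjc1 was at 4.39, 4.59 and 4.92 RPKM in Ctrl and at 7.48, 8.26 and 7.20 RPKM in icKO. Every icKO sample lay above every Ctrl sample, as did those of 62% of all genes tested. The log2 difference of 0.71 (SE 0.103, limma adjusted p = 0.000199) stayed under the fold limit, so Gjc1 was not called, and it was 0.14 above the median of all genes. With median-ratio scaling, which centres that median, the difference was 0.18 (limma adjusted p = 0.137).

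Gja4 was at 0.179, 0.370 and 0.383 RPKM in Ctrl and at 1.08, 0.601 and 1.53 RPKM in icKO. These values stand on about 4, 11 and 11 reads in Ctrl and 31, 17 and 31 reads in icKO. Every icKO sample lay above every Ctrl sample, as did those of 62% of all genes tested, but the mean over the 6 samples was under the filter. The log2(RPKM + 0.1) difference was 1.47, and in a fit without the filter its limma adjusted p was 0.00844. This difference was 0.91 above the median of all genes tested, and it was 1.03 with median-ratio scaling.

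Gja5 was at 0.145, 0.091 and 0.226 RPKM in Ctrl, about 6, 5 and 12 reads, and at 0.434, 0.133 and 0.346 RPKM in icKO, about 23, 7 and 13 reads. The groups overlapped, and Gja5 was under the filter. Its log2(RPKM + 0.1) difference was 0.62 (limma adjusted p = 0.178 without the filter), 0.054 above the median of all genes tested. With median-ratio scaling the difference was 0.27. Low as Gja5 was, each sample held more than the 3 reads taken as a floor for counting error.

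The knockout effect on Gja1 differed between the stages. In a limma fit of all 12 samples, the log2 fold change at 4 weeks minus that at E10.5 was −1.03 (SE 0.279, 95% interval −1.63 to −0.43, adjusted p = 0.00497), while 68.7% of the 8909 genes tested differed, 9.29% with a lower and 59.4% with a higher effect at 4 weeks. For Gjc1 this difference was 0.93 (SE 0.182, 95% interval 0.54 to 1.32, limma adjusted p = 0.000527), beside a median of 0.69 over all genes. It was 0.28 with median-ratio scaling (limma adjusted p = 0.130) and 0.25 with quantile normalization (limma adjusted p = 0.164). Without the RPKM filter the difference was 3.01 for Gja5 (limma adjusted p = 9.18e-05) and 1.71 for Gja4 (limma adjusted p = 0.00679). The median over the 15543 genes of that fit was 0.54. At a limma adjusted p under 0.05, 6179 of them had a higher and 1189 a lower effect at 4 weeks. The adult values of Gja5 and Gja4 stand on the few reads given above. Stage, Cre line and the use of whole hearts or isolated cells changed together between the tables, so their parts cannot be told apart.

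**Figure D2:**
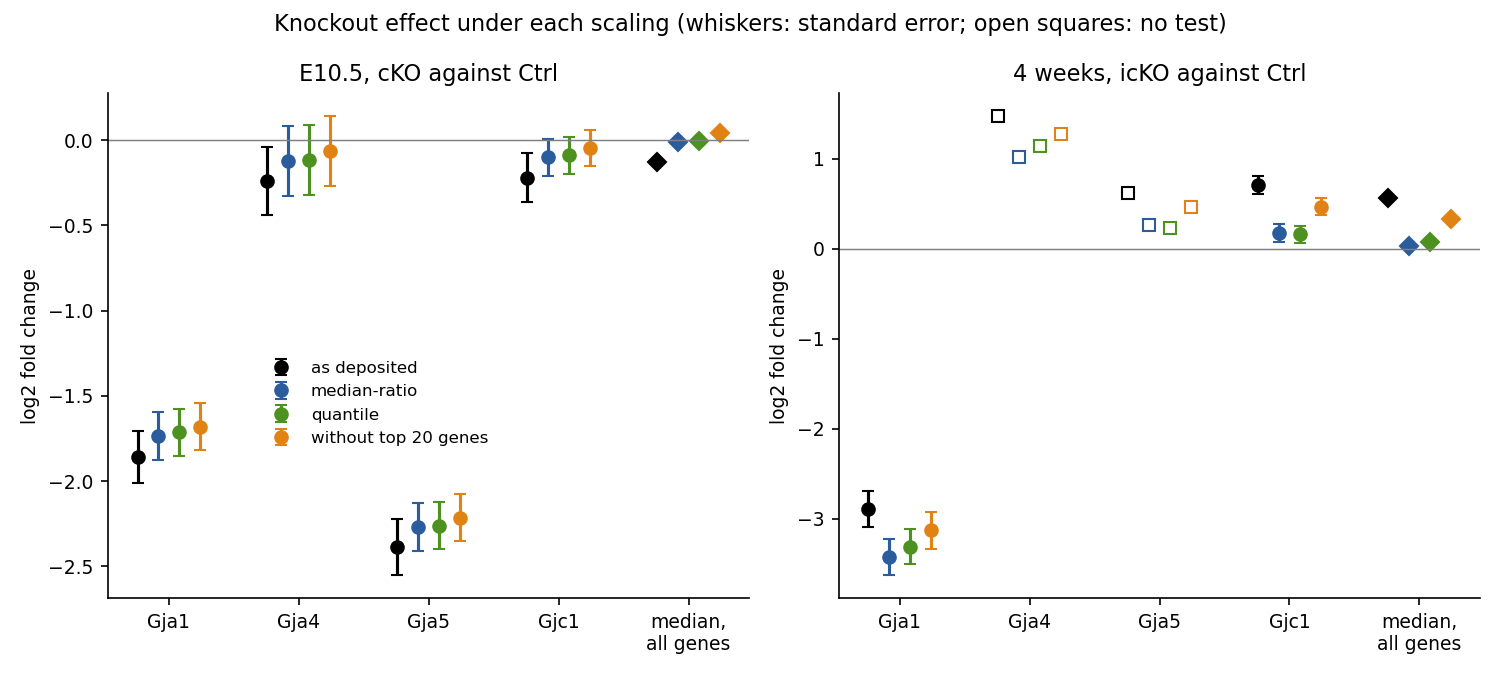
Log2 fold change of each connexin gene under the deposited RPKM and 3 other scalings, at E10.5 on the left and at 4 weeks on the right. Filled points carry their standard error, open squares are adult Gja4 and Gja5, which were not tested under the RPKM filter, and diamonds give the median of all genes tested. Adult Gja1 lies between −2.89 and −3.42 under these scalings, and adult Gjc1 moves from 0.71 to 0.18 as the median of all genes moves from 0.57 to 0.04.

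The most abundant connexin differed between Ctrl and cKO hearts. RPKM are per length, so levels can be set beside each other within a sample. In E10.5 Ctrl hearts, Gja1 was highest at a mean level of 44.9 RPKM, Gja5 and Gjc1 followed with overlapping ranges, and Gja4 was lowest at 8.56 RPKM. In cKO hearts Gjc1 was highest in all 3 samples with a mean level of 22.2 RPKM, above Gja1 at 12.3, Gja4 at 7.47 and Gja5 at 4.89 RPKM. The ranges of these 4 genes did not overlap in cKO, although Gja4 reached 10.3 RPKM in the highest sample and Gja1 10.503 RPKM in the lowest. In adult Ctrl cardiomyocytes Gja1 was 93.1 RPKM and Gjc1 4.64 RPKM, and the ranges of Gja4 and Gja5 overlapped below them. In icKO cardiomyocytes the levels were 12.1 RPKM for Gja1, 7.65 for Gjc1, 1.07 for Gja4 and 0.304 for Gja5, with no overlap between neighbours.

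Summed over the 20 connexin genes of the tables, connexin RPKM was 117.4, 89.6 and 112.5 in E10.5 Ctrl hearts and 47.2, 47.6 and 49.6 in cKO hearts. In adult cardiomyocytes the sum was 74.5, 102.0 and 134.9 in Ctrl and 22.5, 24.3 and 24.2 in icKO. The groups did not overlap at either stage. The share of Gja1 in this sum was 42.0% ± 1.59 in E10.5 Ctrl and 25.5% ± 3.76 in cKO, and that of Gja5 was 24.4% ± 1.42 and 10.2% ± 1.43 (SD, n = 3). Gjc1 held 24.2% ± 1.66 of the sum in Ctrl and 45.9% ± 7.37 in cKO, and Gja4 held 8.09% ± 0.514 and 15.5% ± 5.26. In adult Ctrl Gja1 held 89.1% ± 2.91 and Gjc1 4.68% ± 1.14, against 51.0% ± 0.473 and 32.3% ± 2.31 in icKO. Gja4 and Gja5 together with these made up 94.3% of the sum in adult Ctrl and 89.2% in icKO.

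**Figure D3:**
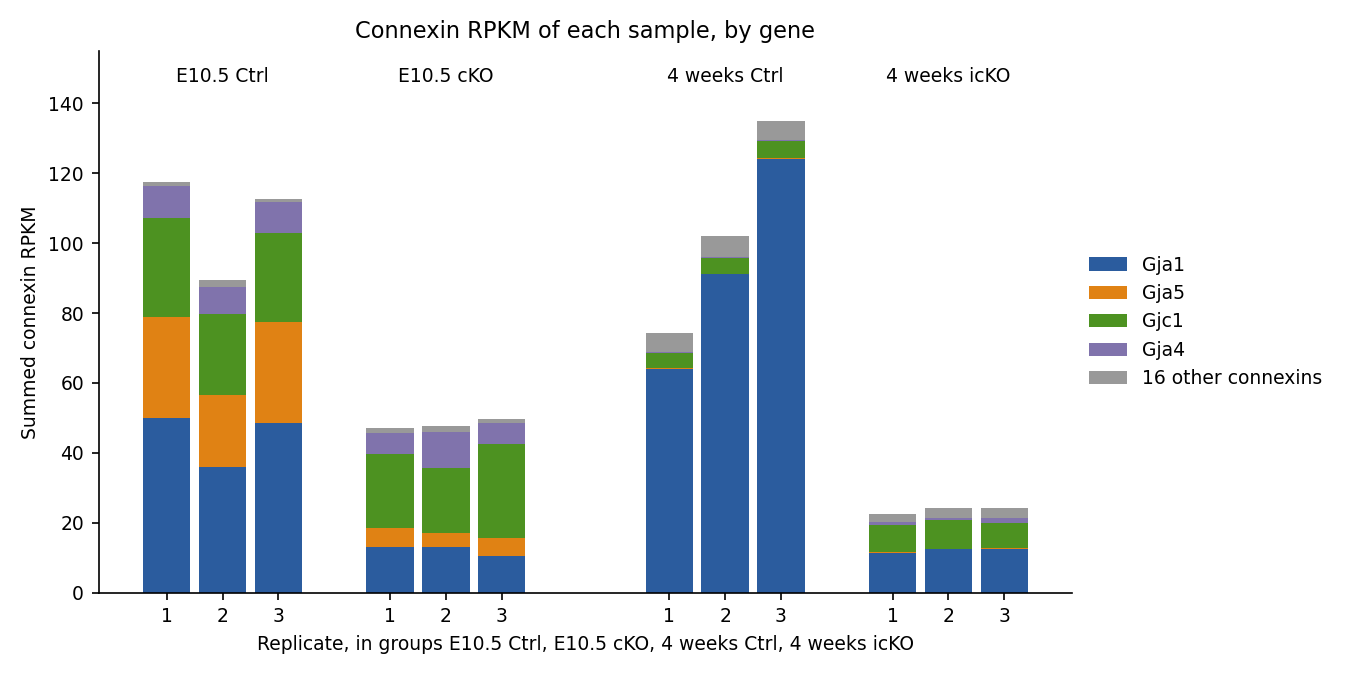
Summed RPKM of all 20 connexin genes in each of the 12 samples, stacked by gene. The bars of knockout samples are 47.2 to 49.6 RPKM high at E10.5 and 22.5 to 24.3 RPKM at 4 weeks, all below their Ctrl bars, and the green Gjc1 segment fills a larger part of each knockout bar.

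Ratios between connexins within a sample do not depend on a factor by which the whole sample is scaled. At E10.5 the ratio of Gjc1 to Gja1 was 0.563, 0.644 and 0.524 in Ctrl and 1.60, 1.43 and 2.54 in cKO, so that it passed 1 in each cKO heart and in no Ctrl heart. At 4 weeks it was 0.0684, 0.0504 and 0.0397 in Ctrl and 0.658, 0.665 and 0.578 in icKO. The log2 ratio was 1.65 higher in cKO and 3.62 higher in icKO, and the groups did not overlap. An exact two-sided permutation test of 3 samples against 3 gave p = 0.1 for each of the 6 ratios computed, the smallest p that this design allows, and the Benjamini-Hochberg adjusted value over the 6 was also 0.1.

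The ratio of Gja5 to Gja1 was 0.580, 0.570 and 0.594 in E10.5 Ctrl hearts and 0.404, 0.312 and 0.499 in cKO hearts. The Ctrl values lay within a narrow range and every cKO value lay below it, a log2 difference of −0.55. The ratio of Gja4 to Gja1 was 0.183, 0.216 and 0.180 in Ctrl and 0.456, 0.790 and 0.578 in cKO, a log2 difference of 1.62. At 4 weeks the log2 ratio to Gja1 was 3.81 higher in icKO for Gja5 and 4.66 higher for Gja4, from the few reads given above for these genes.

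**Figure D4:**
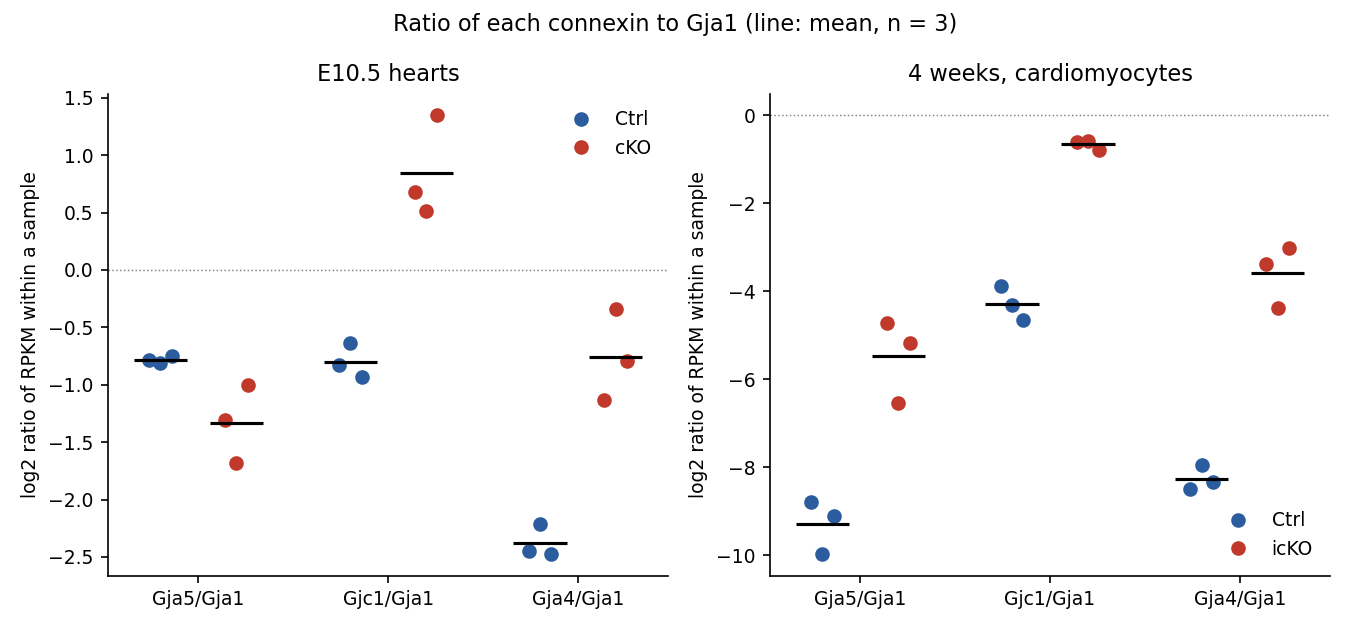
Log2 ratio of Gja5, Gjc1 and Gja4 to Gja1 within each sample, at E10.5 on the left and at 4 weeks on the right, with Ctrl in blue, knockout samples in red and lines at the means (n = 3). A value of 0, the dotted line, is an equal level per length, which Gjc1 exceeds in the 3 cKO hearts.

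The tables list 16 other connexin genes, and 1 of them, Gja3, had a mean above 1 RPKM in any group. Gja3 encodes Cx46, known chiefly from the lens. It was at 0.260 ± 0.252 RPKM in E10.5 Ctrl and 0.346 ± 0.0437 RPKM in cKO, under the filter. In adult cardiomyocytes its level was 5.40 ± 0.159 RPKM in Ctrl and fell to 2.15 ± 0.353 RPKM in icKO (SD, n = 3), a log2 fold change of −1.30 (SE 0.142, limma adjusted p = 3.25e-05). The adult Ctrl range of Gja3, 5.22 to 5.50 RPKM, lay above that of Gjc1, 4.39 to 4.92 RPKM, so that Gja3 ranked next to Gja1 there by RPKM. Gjc1 has RefSeq transcripts of 1890, 1903 and 2314 bases. Which length its RPKM used is not known, so the order of Gja3 and Gjc1 is not certain. The remaining 15 connexin genes were under 1 RPKM in every group, 9 of them under 0.1 RPKM, and Gjb6 and Gjd2 were listed at 0 in all 12 samples.

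Pannexins form membrane channels of similar shape that rarely dock between cells. Panx1 was at 3.08 ± 0.636 RPKM in E10.5 Ctrl hearts and 3.23 ± 0.577 RPKM in cKO, a log2 difference of 0.07 (limma adjusted p = 0.856). In adult cardiomyocytes it was at 0.0303 ± 0.0279 RPKM in Ctrl and 1.95 ± 0.456 RPKM in icKO. The groups did not overlap, and 62% of all genes tested lay higher without overlap. Its mean over these 6 samples, 0.990 RPKM, fell just under the filter. Without the filter the log2(RPKM + 0.1) difference was 3.97 (limma adjusted p = 7.25e-06), in a fit that called 3472 of 16289 genes higher. The Ctrl samples were at 0.036, 0.055 and 0 RPKM, so the size of this difference depends on the added 0.1. Panx2 was at 1.14 ± 0.173 and 0.666 ± 0.216 RPKM in E10.5 Ctrl and cKO (log2 difference −0.72, limma adjusted p = 0.285 without the filter).

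Connexin channels are held at the intercalated disc by scaffolds and junction partners. At E10.5 limma called 0 of 10 of these genes, with 1 lower and 2 higher at an unadjusted p under 0.05 and a median log2 difference of 0.05. The most abundant were β-catenin, Ctnnb1, at 112.0 RPKM in Ctrl and 108.0 RPKM in cKO, and desmoplakin, Dsp, at 50.4 and 57.0 RPKM. At 4 weeks limma called 0 of 9 lower and 2 higher, beside 8.45% and 28% of all genes tested. At an unadjusted p under 0.05, 1 was lower and 6 higher, and the median was 0.41, under the median of 0.57 of all genes. Ctnnb1 rose from 51.7 ± 2.28 to 128.0 ± 4.61 RPKM (log2 fold change 1.31) and plakoglobin, Jup, from 31.3 ± 3.27 to 66.4 ± 4.06 RPKM (1.09). Jup was just under the fold limit without Ctrl replicate 1 (0.998). With median-ratio scaling neither was called (log2 differences of 0.77 and 0.55), and the list median was −0.13.

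Genes that deliver connexins to the membrane or remove them gave 0 calls by limma among 9 at E10.5, with 2 lower and 0 higher at an unadjusted p under 0.05. Nedd4, a ubiquitin ligase, was at 263.0 RPKM in Ctrl and 220.0 RPKM in cKO, and Mapre1, a microtubule plus-end binding protein, at 23.0 and 18.6 RPKM. At 4 weeks 1 of 9 was called lower and 2 higher, beside 8.45% and 28% of all genes tested. Tmem65, an intercalated disc protein that binds Cx43, fell from 40.9 ± 1.60 to 14.6 ± 0.401 RPKM (log2 fold change −1.47, limma adjusted p = 5.69e-07). Mapre1 rose from 4.40 ± 0.489 to 13.7 ± 1.13 RPKM (log2 fold change 1.62) and Tsg101, which sorts membrane proteins for degradation, from 11.0 ± 0.478 to 25.4 ± 2.40 RPKM (1.19). Tsg101 was not called with median-ratio scaling (0.66), quantile normalization (0.67) or without the 20 most abundant genes (0.95), and the list had 2 lower and 1 higher with median-ratio scaling and with quantile normalization. The median of the 9 was −0.14 at E10.5 and −0.27 at 4 weeks.

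Kinases that phosphorylate connexins gave 0 calls by limma among 8 at E10.5, with 1 lower at an unadjusted p under 0.05, and Akt1 and Prkaca, the most abundant, were at 57.7 and 30.2 RPKM in cKO against 70.3 and 34.6 RPKM in Ctrl. At 4 weeks 2 of 7 were called higher, near the 28% of all genes tested. These were Prkca, a protein kinase C (log2 fold change 1.34), and the ERK kinase Mapk3 (1.20). Neither was called with median-ratio scaling, where their log2 differences were 0.81 and 0.67.

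Among transcription factors known to act on connexin genes, 1 of 15 was called lower at E10.5, where 0.542% of all genes tested were. Hopx, a homeodomain protein of cardiac muscle, went from 55.5 ± 8.62 to 26.5 ± 2.25 RPKM (log2 fold change −1.05, limma adjusted p = 0.00974), close to the fold limit. It was not called with median-ratio scaling (−0.93), nor without Ctrl replicate 1 (−0.98), Ctrl replicate 3 (−0.99) or cKO replicate 1 (−0.99). The list's median was −0.42 beside −0.13 for all genes, with 7 lower and 1 higher at an unadjusted p under 0.05, and Gata4 was at 44.1 RPKM in Ctrl and 37.3 RPKM in cKO. At 4 weeks 4 of 10 were called lower and 0 higher, beside 8.45% and 28% of all genes tested. At an unadjusted p under 0.05, 4 were lower and 3 higher. Tbx5, which activates Gja5 in the heart, went from 8.17 ± 1.59 to 2.51 ± 0.369 RPKM (log2 fold change −1.65, limma adjusted p = 2.37e-05). Irx3, a factor of the conduction system, went from 12.2 ± 2.49 to 3.96 ± 1.17 RPKM (−1.63), Hopx from 117.0 ± 9.32 to 30.5 ± 3.82 RPKM (−1.95) and Jun, a subunit of AP-1, from 78.9 ± 18.9 to 15.7 ± 0.827 RPKM (−2.30). All 4 kept this call under each scaling tried.

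Gja5 marks atrial and conduction muscle, so genes of that muscle were counted beside it. At E10.5, 1 of 10 was called lower, where 0.542% of all genes tested were. Kcne1, a potassium channel subunit, went from 3.03 ± 0.760 to 1.14 ± 0.289 RPKM (log2 fold change −1.33, limma adjusted p = 0.0280). It was not called without Ctrl replicate 1 or 3 or cKO replicate 1 or 2 (limma adjusted p from 0.0517 to 0.111). The atrial myosin light chains Myl7 and Myl4, the most abundant of the list, were at 1070 and 842.0 RPKM in Ctrl and at 760.0 and 763.0 RPKM in cKO. The list's median was −0.38, with 5 lower and 1 higher at an unadjusted p under 0.05. At 4 weeks 3 of 6 were called lower and 2 higher, beside 8.45% and 28% of all genes tested. The pacemaker channel Hcn4 (log2 fold change −3.30) and the T-type calcium channel Cacna1g (−2.95) fell, and Nppa, the atrial natriuretic peptide gene (2.81), and Myl4 (2.70) rose.

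**Figure D5:**
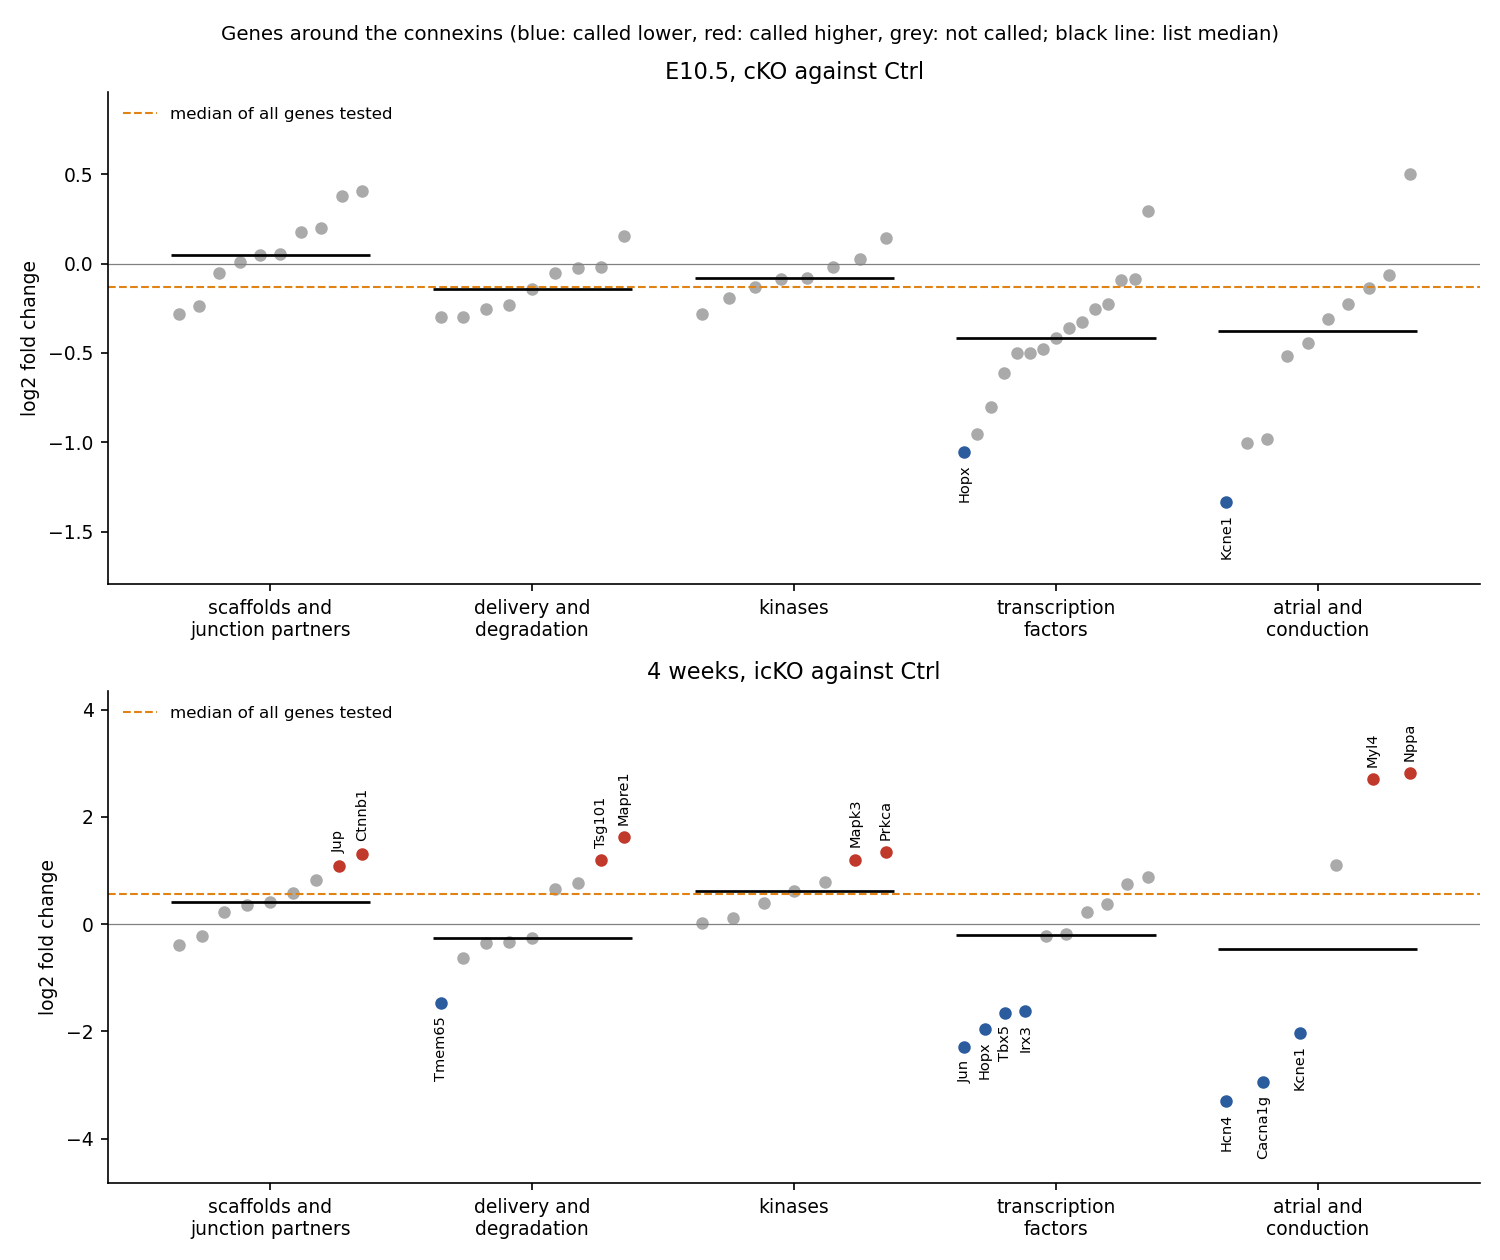
Log2 fold change of each tested gene in 5 lists of genes around the connexins, at E10.5 in the upper and at 4 weeks in the lower panel, sorted within a list. Blue and red points are called lower and higher, grey points are not called, black lines are list medians, and the dashed line is the median of all genes tested, −0.13 and 0.57. At 4 weeks the called transcription factors lie from −2.30 to −1.63 and the called kinases at 1.20 and 1.34.

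In bulk samples, fewer cells of a type and less RNA per cell cannot be told apart, and markers of cell types were therefore read beside the connexins. At E10.5 the 12 cardiomyocyte markers summed to 2352 to 3307 RPKM in Ctrl and 2277 to 2754 RPKM in cKO, with Tnnt2 at 889.0 and 639.0 RPKM and Tnnc1 at 465.0 and 463.0 RPKM. Relative to their geometric mean, Gja1 was lower in cKO by a log2 difference of −1.72 and Gja5 by −2.25, as against −1.86 and −2.39 alone. At 4 weeks the sum was 18500 to 19290 RPKM in Ctrl and 7892 to 9249 RPKM in icKO, and 4 of 12 markers were called lower, where 8.45% of all genes tested were. The called markers were Myh6, Atp2a2, Ryr2 and Tnni3, with log2 fold changes of −3.34, −2.98, −2.83 and −2.12. With median-ratio scaling 7 of the 12 were called lower, and with quantile normalization 2 were called higher. The list median was −0.66 as deposited, −1.2 with median-ratio scaling and −0.20 with quantile normalization. Relative to the 12 markers, the log2 difference of Gja1 was −1.78 at 4 weeks, near the −1.72 at E10.5, and Ctrl and icKO samples did not overlap. Whether the Gja1 effect differed between stages on this scale was not tested. The adult difference of Gjc1 relative to the 12 markers was 1.81. Relative to the mural markers the adult difference of Gjc1 was 0.048, with Ctrl at 0.047 to 0.231 and icKO at −0.17 to 0.37, which overlap. Those markers did not move together at 4 weeks. Of 7 tested, 5 lay above 0 and 2 below, among them Tagln (1.91) and Abcc9 (−3.55). At E10.5 Gjc1 differed by −0.47 relative to the mural markers, and every cKO heart lay below every Ctrl heart. Relative to the cardiomyocyte markers it differed by −0.081 there, with overlap. The part of mural cells in the Gjc1 values was not tested.

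Gja4 is an endothelial gene, and 0 of 11 endothelial markers were called by limma at E10.5, with 2 higher at an unadjusted p under 0.05 and with Cdh5 at 29.1 and 33.0 and Emcn at 26.0 and 30.5 RPKM in Ctrl and cKO. Their sum was 177.4 to 230.8 RPKM in Ctrl and 207.6 to 226.8 RPKM in cKO. At 4 weeks the sum was 14.3 to 39.0 RPKM in Ctrl and 39.1 to 69.5 RPKM in icKO. Of 11 tested, 3 were called higher, near the 28% of all genes. These were Vwf, Emcn and Esam, with log2 fold changes of 1.39, 1.17 and 1.16, and none of them was with median-ratio scaling. Without Ctrl replicate 1 the only one called was Vwf, and without Ctrl replicate 3 there were 8 of these markers called higher. Gja4 relative to these markers differed by a log2 of −0.39 at E10.5 and 0.51 at 4 weeks, where Ctrl and icKO samples overlapped. Relative to the arterial markers the difference was −0.33 at E10.5 and 0.77 at 4 weeks, where they did not overlap (Ctrl from −0.76 to −0.73, icKO from −0.32 to 0.30), and 2 of the 6 arterial markers passed the filter there. The part of endothelial RNA in the adult Gja4 value was not tested.

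Other cell types moved with the adult groups too. Of the 8 fibroblast markers 5 passed the filter, and these 5 were called higher in icKO, beside 28% of all genes tested. In Ctrl, Postn, Col1a1, Col1a2 and Col3a1 were at 0.367, 0.435, 0.703 and 0.909 RPKM, so they passed the filter only through icKO. Dcn was at 3.64 RPKM in Ctrl. A marker this low in Ctrl that did not rise could not be tested, so the count was partly set by the filter. Among these markers were Postn (log2 fold change 5.75), Col1a1 (4.43), Col1a2 (3.76) and Col3a1 (3.67). Their summed list level was 5.03 to 8.39 RPKM in Ctrl and 60.4 to 87.5 RPKM in icKO. Of 7 mural markers 4 were called higher, where 28% of all genes were, among them Cspg4 (2.19), Tagln (1.91) and Des (1.29), a gene that heart muscle also makes, and Abcc9 (−3.55), likewise made in heart muscle, was called lower. With median-ratio scaling Des was not called (0.75), and 2 mural markers were called higher. Plvap (1.57) of the endocardial, Efnb2 (2.07) of the arterial and C1qb (1.40) and Lyz2 (1.10) of the macrophage markers were called higher, Lyz2 not without Ctrl replicate 1 (0.91) or icKO replicates 1 (0.93) or 2 (0.92). With median-ratio scaling neither C1qb (0.91) nor Lyz2 (0.59) was called, nor with a pseudocount of 1 (0.76 for each). Plvap, Efnb2, C1qb and the called mural marker Pdgfrb were at 0.55, 0.688, 0.595 and 0.963 RPKM in Ctrl. These too passed the filter only through icKO. Nfatc1 at 3.19 and 4.08 RPKM, Nrp1 at 10.3 and 7.18 RPKM and Hba-a1 at 2.39 and 3.03 RPKM in Ctrl and icKO were not called, except that Nrp1 was called lower with median-ratio scaling (−1.04) and quantile normalization (−1.06), and no epicardial marker passed the filter. The part of these cells in the adult connexin values was not tested.

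At E10.5, limma called none of the endocardial (3 tested), arterial (5), mural (8), fibroblast (7), epicardial (5) and erythroid (6) markers. At an unadjusted p under 0.05, 1 mural, 1 fibroblast and 2 epicardial markers were lower, 2 mural markers were higher, and the other lists had 0. The most abundant of each list were Plvap and Npr3, at 26.1 and 21.4 RPKM in cKO, Nrp1 and Efnb2 (31.5 and 13.5), Acta2 and Tagln (468.0 and 176.0), Col3a1 and Postn (60.3 and 18.7) and Upk3b and Upk1b (21.0 and 9.76). In the same order, the Ctrl levels were 23.7 and 20.7, 31.8 and 11.7, 366.0 and 127.0, 47.9 and 22.9, and 18.0 and 10.2 RPKM. Lyz2, a macrophage marker, was called lower (log2 fold change −1.03, limma adjusted p = 0.0275), but not without Ctrl replicate 1 or 3 or cKO replicate 1 or 2 (adjusted p from 0.0778 to 0.106), and Cd68 was at 1.67 and 1.57 RPKM. The 6 erythroid markers summed to 228.4 to 765.0 RPKM in Ctrl and 362.1 to 2148 RPKM in cKO, with Hbb-y at 330.0 ± 165.0 and 635.0 ± 554.0 RPKM and Hba-x at 205.0 ± 116.0 and 427.0 ± 313.0 RPKM. The part of blood RNA in the connexin values was not tested.

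Genes with the profile nearest to each connexin were taken by Pearson's r of log2(RPKM + 0.1) over the 12 samples, among 11493 genes. For Gja4, Gja5 and Gjc1 this r mostly follows the difference between the 2 stages and between whole hearts and isolated cells, which come from separate tables. Gja1 was at 44.9 and 93.1 RPKM in the Ctrl groups and 12.3 and 12.1 RPKM in the knockout groups. Its r therefore follows Ctrl against knockout more than stage. In each case r is a description. Gja1 was most like Stard7 (r = 0.986), Svip (0.971) and Timm21 (0.970), whose mean levels were lower in the knockout group of both tables. For example, Svip had mean levels of 4.00 and 1.75 RPKM in E10.5 Ctrl and cKO and of 7.55 and 1.41 RPKM in adult Ctrl and icKO. Gja4 was most like Nos3, the endothelial nitric oxide synthase gene (0.993), Oaf (0.991) and Arhgap31 (0.991). Nos3 had mean levels of 8.45, 7.08, 0.610 and 1.66 RPKM in the same order of groups. Gja5 was most like Maz (0.996), Ipo11 (0.990) and Rnaseh2b (0.989), and Gjc1 was most like Ssrp1 (0.998), Hnrnpr (0.997) and Ranbp1 (0.996). Among the connexins themselves r was 0.964 for Gja4 and Gjc1 and −0.37 for Gja1 and Gja4.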

How the data were processed

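RNA of 6 E10.5 hearts and 6 adult cardiomyocyte samples was extracted with Trizol and made into ribosomal RNA-depleted total RNA libraries. The submitters' processing notes name cutadapt 2.6, STAR 2.5.3a, HOMER 4.11.1, DESeq2 1.12.4 and mm10. The authors deposited RPKM per sample for 20775 genes in 1 table per stage. Whether counting used strand and which reads RPKM were scaled to is not given in the sources used here. The tables also hold the authors' log2 fold changes, FDR values and mean RPKM, which were not used.

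Since the values were RPKM and not counts, each stage was fitted by itself on log2(RPKM + 0.1), after removal of genes whose mean RPKM was 1 or less, in limma 3.58.1 (trended eBayes; R 4.3.3), with Benjamini-Hochberg adjustment over all genes tested, and stages were compared by a contrast in 1 fit of all 12 samples. The fits were tested on simulated data. Depth was estimated from the spacing of values of up to 12 reads. In these libraries 63.7% to 71.7% of those values came within 0.1 of an integer (20% by chance), so reads were not recovered exactly, no count test was run, and read numbers are approximate and cover counting error only. Within-sample ratios were compared by exact permutation test. Genes named from lists are, per list and stage, up to 4 called genes of largest change, or the 2 most abundant where fewer than 2 were called. The connexins and the lists were chosen with earlier results of these data known. Some genes of the scaffold and kinase lists are not reported here and were left out of their counts and medians. Tcf21 is in the fibroblast and epicardial lists, and Sox17 and Hey1 are in the transcription factor and arterial lists. Alternatives were other pseudocounts, filters, scalings, eBayes without a trend, the replicate number as a block, and leaving out each replicate. Python 3.11.15, pandas 2.3.3, numpy 2.4.6, scipy 1.17.1 and matplotlib 3.10.9 were used.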

Additional observations from a re-analysis of the deposited data

Results flagged for a closer look

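The knockout effect on Gja1 and on Gjc1 differed between the stages in the contrast of the 12-sample limma fit. For Gja1 the log2 fold change at 4 weeks was lower than that at E10.5, by a difference of −1.03 (adjusted p = 0.00497), and every knockout sample lay below every Ctrl sample of its own table. Under the 3 other scalings the Gja1 difference lay from −1.69 to −1.445. Relative to the cardiomyocyte markers, the knockout effect on Gja1 was −1.72 at E10.5 and −1.78 at 4 weeks, with no test between stages. For Gjc1 the difference was 0.93 (adjusted p = 0.000527), with all 3 icKO samples above and cKO samples overlapping their Ctrl, and it was not called with median-ratio scaling or quantile normalization. Of all genes tested, 68.7% differed between the stages at this threshold.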

How the results depend on the processing

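Gja1 was called lower at both stages and Gja5 at E10.5 under each of the 15 alternatives, and Gjc1 and Gja4 were called under none at E10.5. Without each replicate in turn, Gja1 ranged from −2.01 to −1.75 at E10.5 and from −3.13 to −2.65 at 4 weeks, Gja5 at E10.5 from −2.55 to −2.26, Gja4 from −0.49 to −0.11 and Gjc1 from −0.36 to −0.10 at E10.5, and adult Gjc1 from 0.65 to 0.75 on the log2 scale. The adult Gja4 difference was 0.64 with a pseudocount of 1. The difference between stages ranged from −1.27 to −0.80 for Gja1 and from 0.81 to 1.07 for Gjc1 without each replicate. With median-ratio scaling and quantile normalization it was 0.28 and 0.25 for Gjc1, neither called, and −1.69 and −1.59 for Gja1, both called. Scaling without the 20 most abundant genes gave −1.445 for Gja1. Gja4 and Gja5 have no such value under the filter. Without each replicate, the 59 lower and 26 higher genes at E10.5 ranged from 18 (without Ctrl replicate 3) to 102 (without cKO replicate 3) and from 9 to 36, and those at 4 weeks from 760 to 856 and from 2493 to 2795. At E10.5, lower and higher counts were 36 and 12 with a pseudocount of 1, 35 and 17 without a filter, 34 and 9 with a mean RPKM over 5, 39 and 35 with quantile normalization and 36 and 48 without the 20 most abundant genes, and 38 genes were lower with eBayes without a trend. At 4 weeks they were 454 and 1687 with a mean RPKM over 5, 1476 and 1106 with median-ratio scaling and 1341 and 1213 with quantile normalization, so that 57.2% and 52.5% of called genes were lower instead of 23.2%. At E10.5, 53.9% were lower with median-ratio scaling, 52.7% with quantile normalization and 42.9% without the 20 most abundant genes, instead of 69.4%, and at 4 weeks the last gave 36.3%. Same-numbered samples did not deviate together (r from −0.07 to 0.10 at E10.5 and from 0.04 to 0.15 at 4 weeks), so the numbers were not taken to pair samples. With the replicate number as a block, 61 and 32 genes were called at E10.5 and 805 and 2672 at 4 weeks, and no connexin changed its call (Gja1 at E10.5 adjusted p = 0.000412, at 4 weeks 5.62e-06, Gja5 at E10.5 2.63e-05).

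The same alternatives were applied to the genes named from the lists after the data were seen. Kcne1 at E10.5 was not called with a pseudocount of 1, without a filter, or without Ctrl replicate 1 or 3 or cKO replicate 1 or 2, and Lyz2 at E10.5 was not called under any of the 3 other scalings. Signs turned for genes that were not called. With median-ratio scaling, quantile normalization and without the 20 most abundant genes, log2 differences at E10.5 were 0.067, 0.24 and 0.12 for Ctnnb1, 0.11, 0.13 and 0.16 for Nrp1, 0.051, 0.059 and 0.11 for Upk1b, and 0.020, 0.023 and 0.072 for Cd68. Myl4 was at 0.22 with quantile normalization and 0.037 without the 20 most abundant genes, Nedd4 at 0.044 with quantile normalization, and adult Nfatc1 at −0.17 with median-ratio scaling and −0.14 with quantile normalization. Without each replicate in turn, the sign was not stable for Npr3 (−0.13 to 0.16), Nrp1 (−0.081 to 0.029), Panx1 (−0.041 to 0.23), Postn (−0.75 to 0.24), Tnnc1 (−0.15 to 0.17) and Upk1b (−0.20 to 0.043) at E10.5 and for Hba-a1 (−0.33 to 2.29) at 4 weeks. The cause was not tested.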
